A study of Macaca fascicularis with 22 samples.

Results

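The insulin-like growth factor (IGF) family was examined in skeletal muscle, liver and umbilical cord RNA of newborn macaques that differed in birth weight. Of 10 genes listed (the ligands IGF1 and IGF2, the receptors IGF1R and IGF2R, and the binding proteins IGFBP1 to IGFBP6), each chosen by the human RefSeq accession printed for its probe, 6 had a probe on the array. These were IGF1 (NM_000618), IGF1R (NM_000875), IGFBP1 (NM_000596), IGFBP2 (NM_000597), IGFBP4 (NM_001552) and IGFBP5 (NM_000599), with 1 probe in 2 spots each among 20217 non-control probes. IGF2, IGF2R, IGFBP3 and IGFBP6 had no probe under the accession used for them and were not analysed here.

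IGF-I and IGF-II are small peptide hormones that drive fetal and postnatal growth, and both signal through the IGF1 receptor, a tyrosine kinase upstream of PI3K, AKT and mTOR. In the circulation most IGF is carried by binding proteins, which prolong its life and limit its access to the receptor. The liver is the main source of circulating IGF-I and of IGFBP1, whereas muscle and connective tissue make IGF-I and other binding proteins for local use.

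RNA of cynomolgus macaque (Macaca fascicularis) neonates was hybridised to 22 one-colour Agilent rhesus arrays. Lower birth weight (LBW) neonates lay between the 5 and 25 centile and average birth weight (ABW) neonates between the 50 and 75 centile of birth weight, both within the normal range and without any treatment. There were 4 ABW and 4 LBW arrays of skeletal muscle (biceps femoris), 4 and 4 labelled umbilical cord, and 3 and 3 labelled liver. The dams had conceived naturally by 1 male, the sample labels place sampling at birth whereas the study's methods place that of liver and muscle some days later, and the sources used do not tell which liver, muscle and cord arrays came from the same neonate. A level below is the log2 of the spot signal over the 75th percentile of its array, so that 0 is that percentile and 1 unit is a 2-fold change. Levels are compared between arrays for 1 probe at a time and never between genes.

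The liver and umbilical cord labels did not match their defining genes. For 26 of 26 hepatocyte probes the lowest cord-labelled array lay above the highest liver-labelled array, and 12 were not well above background on any liver-labelled array. Their summed signal, in units of the array's 75th percentile, ranged from 1877 to 5232 on cord-labelled arrays and from 1.08 to 2.01 on liver-labelled arrays. ALB, which encodes albumin, lay between 5.79 and 7.47 on cord-labelled arrays and was not well above background on any of the 6 liver-labelled arrays. All 12 matrix and smooth muscle probes were higher on every liver-labelled array than on every cord-labelled array, with summed signals of 998 to 1112 and 12.5 to 30.7. The 7 erythroid probes separated the labels at 0 of 7 probes, with sums of 124 to 776 on liver-labelled and 15.2 to 148 on cord-labelled arrays. The labels are kept below as given, and the arrays are called labelled umbilical cord and labelled liver. Skeletal muscle matched its label at 12 of 12 striated muscle probes, but its hepatocyte sum ranged from 1.1 to 48.2. Among cord-labelled arrays the striated muscle sum was highest on LBW replicate 1 and ABW replicate 2, at up to 319 against a lowest value of 15.3. On liver-labelled arrays the striated muscle sum ranged from 228 to 278.

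**Figure D1:**
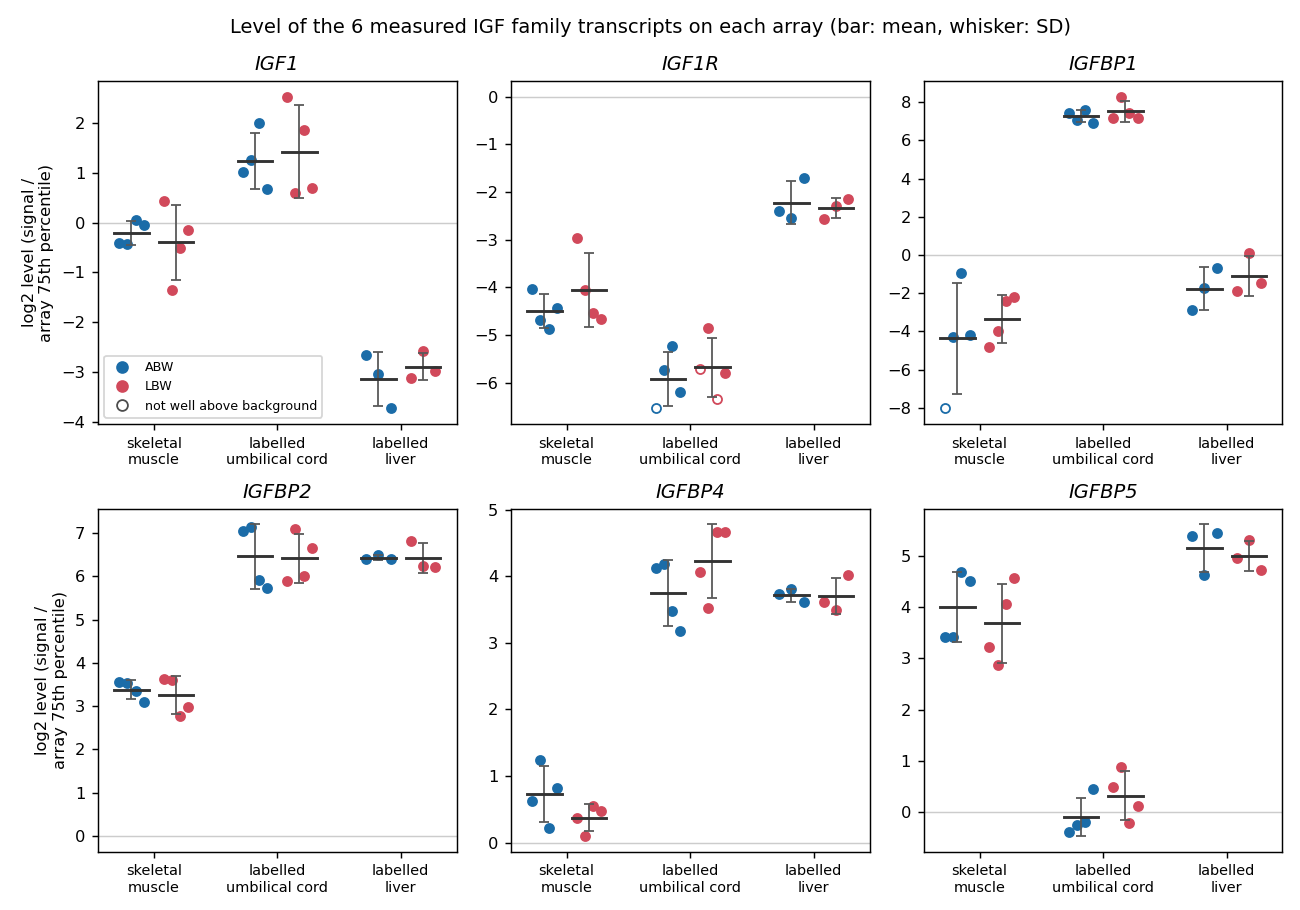
Log2 level of each measured IGF family transcript on each of the 22 arrays, by tissue label (x axis) and birth weight group (colour). Horizontal bars are group means, whiskers are SD, and open circles are spots not well above background. ABW and LBW points overlap in every gene and label, while the tissue labels stand apart for most genes.

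IGF1, the ligand, was highest on cord-labelled arrays, intermediate in skeletal muscle and lowest on liver-labelled arrays, with no overlap between any of the labels. On cord-labelled arrays the ABW levels were 1.01, 1.26, 2.0 and 0.66, and the LBW levels were 2.52, 0.60, 1.86 and 0.69. In skeletal muscle the ABW levels were -0.41, -0.43, 0.05 and -0.04, and the LBW levels were 0.44, -1.35, -0.52 and -0.14. On liver-labelled arrays they were -2.66, -3.04 and -3.72 in ABW and -3.10, -2.58 and -2.98 in LBW. The mean level was thus 1.33 ± 0.72 (SD, n = 8) on cord-labelled arrays, -0.30 ± 0.53 (n = 8) in muscle and -3.01 ± 0.41 (n = 6) on liver-labelled arrays. IGF1 was 20.3-fold higher on cord-labelled than on liver-labelled arrays (log2 difference 4.34, SE 0.32, limma adjusted p = 2.2e-10). Muscle was 6.56-fold above the liver-labelled arrays (2.71, SE 0.32, limma adjusted p = 3.1e-07) and 3.09-fold below the cord-labelled arrays (-1.63, SE 0.30, limma adjusted p = 6.4e-05). With normexp background correction the difference between cord-labelled and liver-labelled arrays was 3.67. The 8 cord-labelled arrays thus carried both the hepatocyte transcripts and the highest IGF1. In bulk RNA, more cells that make a transcript and more transcript per cell cannot be told apart.

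IGF1R, which encodes the receptor for both IGFs, had the opposite order to its ligand. Its levels on liver-labelled arrays were -2.40, -2.55 and -1.71 in ABW and -2.56, -2.29 and -2.15 in LBW. In muscle they were -4.03, -4.67, -4.86 and -4.43 in ABW and -2.96, -4.06, -4.53 and -4.65 in LBW. On cord-labelled arrays they were -6.54, -5.73, -5.22 and -6.20 in ABW and -5.71, -4.84, -6.33 and -5.80 in LBW. Every liver-labelled array lay above every other array, whereas muscle and cord-labelled arrays overlapped, with a highest cord-labelled level of -4.84 and a lowest muscle level of -4.86. The signal was weak on the cord-labelled arrays, where 5 of 8 were well above background, against 8 of 8 in muscle and 6 of 6 on liver-labelled arrays. IGF1R was 11.5-fold lower on cord-labelled than on liver-labelled arrays (log2 difference -3.52, SE 0.28, limma adjusted p = 9.4e-10). In muscle it was 3.99-fold lower than on liver-labelled arrays (-2.0, SE 0.28, limma adjusted p = 3.9e-06). Muscle lay 2.87-fold above the cord-labelled arrays (1.52, SE 0.26, limma adjusted p = 3.6e-05), but this last call was lost with normexp background correction (0.43, limma adjusted p = 0.082) and with scaling to spike-in controls (0.22, limma adjusted p = 0.75). With normexp the other IGF1R differences were smaller too, -1.31 for cord-labelled and -0.89 for muscle against liver-labelled arrays, and both still passed.

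IGFBP1, a binding protein made by hepatocytes and raised by fasting and hypoxia, had the widest range of the family. Its levels on cord-labelled arrays were 7.46, 7.07, 7.59 and 6.93 in ABW and 7.17, 8.29, 7.42 and 7.17 in LBW. On liver-labelled arrays they were -2.90, -1.74 and -0.67 in ABW and -1.89, 0.10 and -1.45 in LBW. In skeletal muscle they were -8.04, -4.29, -0.96 and -4.20 in ABW and -4.79, -3.96, -2.43 and -2.21 in LBW. The cord-labelled arrays stood apart from all others, whereas muscle and liver-labelled arrays overlapped, and muscle ABW replicate 1 was not well above background. IGFBP1 was 450-fold higher on cord-labelled than on liver-labelled arrays (log2 difference 8.81, SE 0.73, 95% interval 155-fold to 1301-fold, limma adjusted p = 1.5e-09). Muscle was 2432-fold below the cord-labelled arrays (-11.25, SE 0.68, limma adjusted p = 8.3e-12) and 5.41-fold below the liver-labelled arrays (-2.43, SE 0.73, limma adjusted p = 0.0067). Without muscle ABW replicate 1 these differences were -10.64 and -1.82, and with normexp -9.84 and -1.36, and all passed the test.

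The spread of IGFBP1 within skeletal muscle, 7.08 log2 units among the ABW arrays, went with the level of hepatocyte transcripts on the same arrays. The mean level of the 26 hepatocyte probes on the ABW arrays was -6.23, -4.52, -1.70 and -4.11, and on the LBW arrays -6.29, -4.57, -2.61 and -3.38, in the same replicate order as above. Muscle ABW replicate 3, with the highest hepatocyte mean of the 8, had the highest IGFBP1, and the 2 arrays with the lowest hepatocyte mean had the lowest IGFBP1. Over the 8 muscle arrays the Pearson correlation was 0.89, given as a description, since both values come from the same arrays. On the liver-labelled arrays hepatocyte means were lower still, from -6.95 to -6.30, yet IGFBP1 was well above background on 6 of 6. There the correlation was -0.07 over 6 arrays. The part of hepatocyte RNA in the muscle values was not tested.

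**Figure D2:**
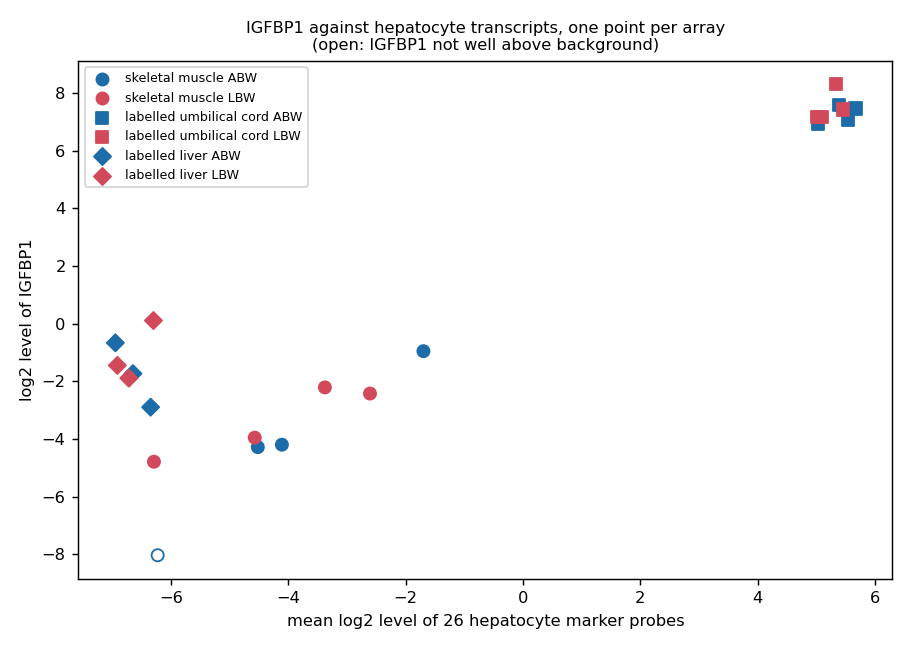
IGFBP1 level (y axis, log2) against the mean level of 26 hepatocyte marker probes (x axis, log2), 1 point per array, with shapes for tissue labels and colours for birth weight groups. Muscle arrays run from lower left to upper right, cord-labelled arrays sit near 7.4 at the upper right, and liver-labelled arrays lie between -2.90 and 0.10 at the lowest hepatocyte levels.

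IGFBP2, a binding protein abundant in fetal blood, was high under both the cord and the liver label. Its levels on cord-labelled arrays were 7.05, 7.14, 5.90 and 5.73 in ABW and 5.90, 7.10, 6.0 and 6.64 in LBW. On liver-labelled arrays they were 6.4, 6.50 and 6.39 in ABW and 6.81, 6.23 and 6.20 in LBW. In muscle they were 3.56, 3.52, 3.35 and 3.10 in ABW and 3.63, 3.61, 2.78 and 2.99 in LBW. All muscle arrays lay below all others, and the cord-labelled arrays lay on both sides of the liver-labelled ones. Muscle was 8.67-fold below the cord-labelled arrays (log2 difference -3.12, SE 0.23, limma adjusted p = 2.2e-10) and 8.61-fold below the liver-labelled arrays (-3.11, SE 0.25, limma adjusted p = 1.2e-09). Between cord-labelled and liver-labelled arrays the difference was 0.01 (SE 0.25, 95% interval -0.51 to 0.53, limma adjusted p = 0.97).

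That last IGFBP2 value depended on processing and slide. It was -0.74 after quantile normalization (limma adjusted p = 0.020). It was 0.88 between ABW arrays labelled cord and LBW arrays labelled liver within slide 4, the only slide with both labels (limma adjusted p = 0.040, 2 arrays a side). The 2 cord-labelled ABW arrays of slide 4 had a mean IGFBP2 level of 7.10 and the 2 of slide 6 a mean of 5.82. The slides hold different neonates, so that slide and neonate cannot be told apart here.

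IGFBP4, a binding protein that inhibits IGF action until cleaved by the protease PAPPA, was like IGFBP2 lowest in muscle. Its levels on cord-labelled arrays were 4.13, 4.19, 3.47 and 3.18 in ABW and 4.07, 3.52, 4.67 and 4.67 in LBW. On liver-labelled arrays they were 3.73, 3.81 and 3.61 in ABW and 3.62, 3.49 and 4.02 in LBW. In muscle they were 0.62, 1.24, 0.23 and 0.82 in ABW and 0.37, 0.10, 0.56 and 0.47 in LBW. Muscle lay below all other arrays, 10.9-fold below the cord-labelled ones (log2 difference -3.44, SE 0.20, limma adjusted p = 4.0e-12) and 8.96-fold below the liver-labelled ones (-3.16, SE 0.21, limma adjusted p = 9.3e-11). Cord-labelled and liver-labelled arrays overlapped and differed by 0.28 (SE 0.21, 95% interval -0.17 to 0.73, limma adjusted p = 0.26).

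IGFBP5, a binding protein of muscle, bone and other connective tissue, was highest on liver-labelled arrays and lowest on cord-labelled arrays. Its levels on liver-labelled arrays were 5.39, 4.62 and 5.45 in ABW and 4.97, 5.31 and 4.73 in LBW. In muscle they were 3.42, 3.42, 4.69 and 4.51 in ABW and 3.23, 2.86, 4.07 and 4.57 in LBW. On cord-labelled arrays they were -0.38, -0.24, -0.20 and 0.45 in ABW and 0.50, 0.89, -0.22 and 0.13 in LBW. The cord-labelled arrays stood below all others, and muscle and liver-labelled arrays overlapped between 4.62 and 4.69. IGFBP5 was 31.1-fold lower on cord-labelled than on liver-labelled arrays (log2 difference -4.96, SE 0.29, limma adjusted p = 4.8e-12). Muscle lay 13.3-fold above the cord-labelled arrays (3.73, SE 0.27, limma adjusted p = 1.2e-10) and 2.35-fold below the liver-labelled arrays (-1.23, SE 0.29, limma adjusted p = 8.9e-04). The liver-labelled arrays, where the matrix and smooth muscle sum was highest, thus also had the highest mean levels of IGFBP5 and IGF1R and the lowest of IGF1.

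By count, 4 of the 6 transcripts differed between cord-labelled and liver-labelled arrays at a limma adjusted p under 0.05, where 66.9% of 17117 probes did. IGF1 and IGFBP1 were higher and IGF1R and IGFBP5 lower on cord-labelled arrays, 2 of 6 each way, where 35.6% of probes were higher and 31.3% lower. These 4 did not overlap between the labels, as 38.0% of probes did not. Between muscle and liver-labelled arrays 6 of 6 differed, against 65.3% of probes, with IGF1 the 1 higher in muscle (37.1% of probes) and 5 lower (28.1%), and 4 of 6 did not overlap (42.5% of probes). Between muscle and cord-labelled arrays 6 of 6 differed, against 64.9% of probes, with IGF1R and IGFBP5 the 2 higher in muscle (35.8% of probes) and 4 lower (29.1%), and 5 of 6 did not overlap (32.2% of probes). All 4, 6 and 6 calls were also made without muscle ABW replicate 3, cord-labelled ABW replicate 2 and cord-labelled LBW replicate 1. These 3 arrays were the highest within their own label for hepatocyte or striated muscle transcripts. Liver-labelled arrays, with striated muscle sums of 228 to 278, were all kept. Since most probes differed between the labels, these shares say little about the family as such. Tissue labels lay mostly on slides of their own. Scaling to spike-in controls moved the median difference over all probes in these comparisons. It went from 0.13 to 0.73, from 0.21 to -0.49 and from 0.11 to -1.19. Such scaling shifts every probe of an array alike, so that the members' differences moved by the same amounts by construction.

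The question of the study was whether birth weight within the normal range goes with gene expression. None of the 6 IGF transcripts passed the test between LBW and ABW neonates under any label. With limma the number past an adjusted p of 0.05 was 0 of 6 in skeletal muscle, 0 of 6 on liver-labelled arrays and 0 of 6 on cord-labelled arrays, where 0%, 0% and 0.625% of all probes passed (0.0234% higher and 0.602% lower in LBW on cord-labelled arrays). At an unadjusted p under 0.05 the number was also 0 of 6 under each label by limma and by the methods' t-test, where limma passed 14.7%, 5.99% and 8.94% of probes. With a 1.5-fold difference required as well, as the study's methods do, limma called 12.2%, 4.71% and 8.93% of all probes and 0 of 6 members under each label. LBW and ABW arrays overlapped for all 6 under all 3 labels, where 10.5%, 12% and 5.85% of probes did not overlap. Exact permutation tests can reach p = 0.029 with 4 against 4 arrays and p = 0.10 with 3 against 3, and the lowest among the members was 0.17, for IGFBP4 in muscle.

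**Figure D3:**
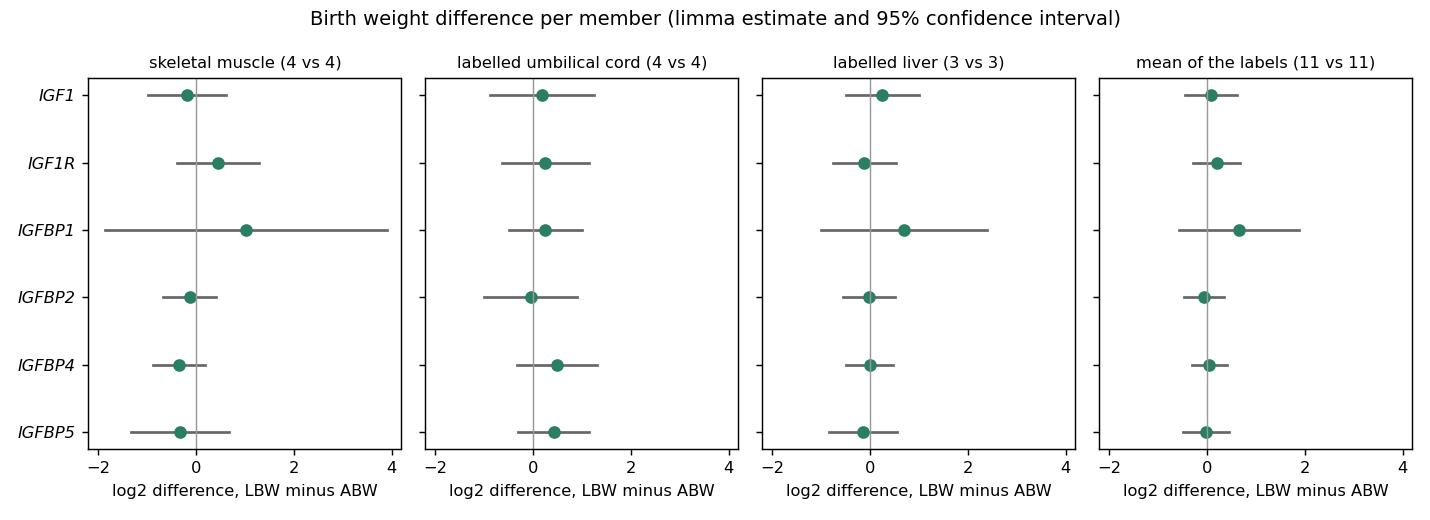
LBW minus ABW difference of each IGF family transcript (log2, limma estimate with 95% confidence interval) in skeletal muscle, on arrays labelled umbilical cord and liver, and as the mean of the 3 labels. All 24 intervals include 0, and that of IGFBP1 in muscle is the widest, from -1.86 to 3.91.

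For the ligand, the LBW minus ABW difference of IGF1 was -0.19 in muscle (95% interval -0.98 to 0.60), 0.18 on cord-labelled arrays (-0.88 to 1.25) and 0.26 on liver-labelled arrays (-0.50 to 1.01). The upper end on cord-labelled arrays is a 2.38-fold higher level in LBW. For the receptor IGF1R it was 0.45 in muscle (-0.39 to 1.29), 0.25 on cord-labelled arrays (-0.63 to 1.14) and -0.11 on liver-labelled arrays (-0.77 to 0.54). Muscle LBW replicate 1, at -2.96, was the highest of the 8 muscle arrays, and without it the muscle difference of IGF1R was 0.08 (limma adjusted p = 0.90).

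IGFBP1 had a positive difference under every label, 1.02 in muscle (95% interval -1.86 to 3.91), 0.25 on cord-labelled arrays (-0.49 to 0.99) and 0.69 on liver-labelled arrays (-1.01 to 2.38). The mean of the 3 was 0.66 (SE 0.58, limma adjusted p = 0.66). In muscle the value turned on single ABW arrays. Without ABW replicate 3, the array with the highest hepatocyte mean, it was 2.16 (limma unadjusted p = 0.063, adjusted p = 0.43), and without ABW replicate 1, the array not well above background, it was -0.20. The mean of the labels without ABW replicate 3 was 1.03 (limma unadjusted p = 0.038, adjusted p = 0.37). Within slide 3, which holds 3 ABW arrays and 1 LBW array labelled liver, the difference was -0.12.

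IGFBP2 differed by -0.13 in muscle (95% interval -0.68 to 0.42), -0.05 on cord-labelled arrays (-0.99 to 0.90) and -0.02 on liver-labelled arrays (-0.54 to 0.51). On cord-labelled arrays it was -0.68 against the ABW arrays of slide 4 and 0.59 against those of slide 6. For IGFBP4 the difference was -0.35 in muscle (-0.89 to 0.18), 0.49 on cord-labelled arrays (-0.33 to 1.30) and -0.01 on liver-labelled arrays (-0.49 to 0.48). Its cord-labelled difference was 0.07 against the ABW arrays of slide 4 and 0.90 against those of slide 6. IGFBP5 differed by -0.33 in muscle (-1.33 to 0.67), 0.42 on cord-labelled arrays (-0.31 to 1.15) and -0.15 on liver-labelled arrays (-0.85 to 0.55).

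Averaged over the labels, 0 of 6 members were called by limma, where 0.888% of probes were (0.251% higher and 0.637% lower in LBW), with 0 of 6 at an unadjusted p under 0.05 by limma and by the methods' two-way test. The median LBW minus ABW difference over the 6 was -0.16 in muscle, 0.25 on cord-labelled arrays and -0.01 on liver-labelled arrays, beside 0.07, -0.01 and 0.06 over all probes. The limma test of whether the birth weight difference varied between labels called 0 of 6, where 1.01% of probes were called, and the lowest unadjusted p was 0.13, for IGFBP4. In skeletal muscle all ABW arrays lay on slide 1 and all LBW arrays on slide 2, so that a slide effect and a birth weight effect cannot be told apart for any muscle value. Cord-labelled ABW arrays lay on slides 4 and 6 and cord-labelled LBW arrays on slide 5. There too a slide effect and a birth weight effect cannot be told apart.

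Within groups the members showed no common direction. Over the deviations of 22 arrays from their group means, the 15 pairwise Pearson correlations ran from -0.45 (IGFBP4 and IGFBP5) to 0.59 (IGFBP1 and IGFBP5). In these deviations the last pair had a correlation of 0.72 over the 8 muscle arrays. Correlations with the hepatocyte mean were instead taken over the levels themselves, not centred on group means. In muscle IGFBP5 had one of 0.73 and IGF1R one of -0.79. IGF1 had one of -0.04 with the hepatocyte mean there, 0.84 over the 6 liver-labelled arrays and 0.09 over the 8 cord-labelled arrays. On liver-labelled arrays that mean spanned only -6.95 to -6.30. Of its 26 probes 12 were not well above background on any of them, so that the 0.84 rests largely on dim signals. Across the 22 arrays, which differ mostly by tissue, the 3 probes most like each member had correlations of 0.95 to 0.98 with it.

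A wider list of 39 genes that carry, release or transmit IGF signals was set beside the family, and 36 of its probes, for 34 genes, passed the filter on dim probes. STAT5B, GRB10 and AKT2 had no probe under the accession used, and the probes of PAPPA2 and IRS4 were among the 3 that were too dim. Between cord-labelled and liver-labelled arrays 27 of the 36 were called by limma, 8 higher and 19 lower, where 66.9% of all probes were called, 35.6% higher and 31.3% lower. Between muscle and liver-labelled arrays 22 were called, 11 in each direction, where 65.3% of all probes were called, 37.1% higher and 28.1% lower. Between muscle and cord-labelled arrays 28 were called, 20 higher and 8 lower in muscle, where 64.9% of all probes were called, 35.8% higher and 29.1% lower. The median difference was -0.49, -0.04 and 0.72 in these comparisons, beside 0.13, 0.21 and 0.11 over all probes.

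**Figure D4:**
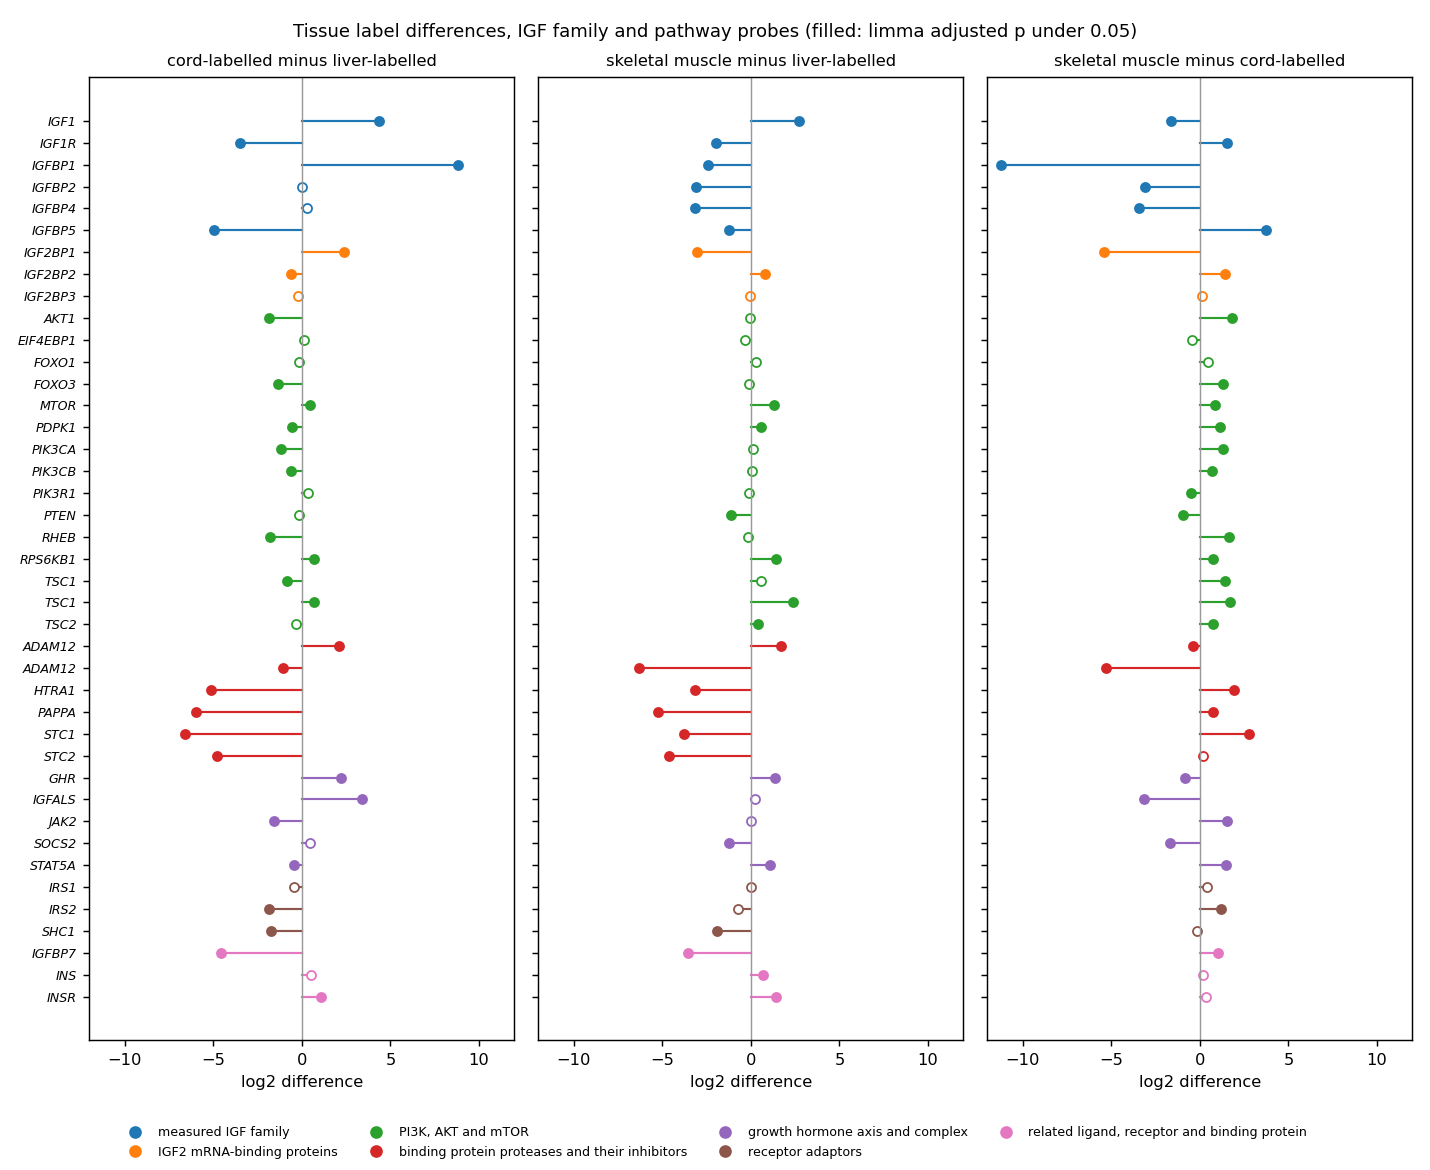
Log2 difference between tissue labels for the 6 IGF family probes and 35 of the 36 probes of the wider list (rows, coloured by role), for the 3 label comparisons (panels). Filled points passed a limma adjusted p of 0.05. IGFBP1 spans the widest range, and the probes of STC1, PAPPA, HTRA1 and STC2 lie far to the left wherever liver-labelled arrays are subtracted.

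Of 6 probes of binding protein proteases and their inhibitors, limma called 5 lower and 1 higher on cord-labelled than on liver-labelled arrays, where 31.3% and 35.6% of all probes were, and the group was not tested as such. PAPPA, the protease that cleaves IGFBP4, had a mean level of 0.21 ± 0.28 (SD, n = 6) there, -5.05 ± 0.30 (n = 8) in muscle and -5.76 ± 0.42 (n = 8) on cord-labelled arrays. Its difference from the liver-labelled arrays was -5.97 for cord-labelled arrays (limma adjusted p = 1.0e-15) and -5.25 for muscle (limma adjusted p = 8.9e-15), and with normexp background correction -3.62 and -3.41. IGFBP4 itself did not pass the test between cord-labelled and liver-labelled arrays. STC1 and STC2, secreted inhibitors of PAPPA, were likewise highest on the liver-labelled arrays. STC1 was lower on cord-labelled arrays (limma adjusted p = 1.5e-13), but it was well above background there on 1 of 8 arrays, so that the size of its log2 difference, -6.59, or -2.60 with normexp, is not settled. STC2 was lower in muscle by -4.60 (limma adjusted p = 4.4e-10). HTRA1, a secreted protease that cleaves IGFBP5 among other substrates, was lower on cord-labelled arrays by -5.10 (limma adjusted p = 5.0e-15). The 2 probes of ADAM12, another binding protein protease, went opposite ways in muscle against liver-labelled arrays, at -6.34 and 1.71, so that no direction is given for the gene. The probe at -6.34 was well above background on 2 of 8 muscle arrays, and its difference was -2.52 with normexp.

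Of 5 genes of the growth hormone axis and the circulating complex, 2 were higher (IGFALS and GHR) and 2 lower (JAK2 and STAT5A) on cord-labelled than on liver-labelled arrays by limma. Over all probes 35.6% were higher and 31.3% lower in this comparison, and the group was not tested as such. JAK2, the kinase bound to the growth hormone receptor, differed by -1.55 (limma adjusted p = 1.3e-07), and STAT5A, a transcription factor it activates, by -0.44 (limma adjusted p = 0.022). IGFALS, the acid-labile subunit of the circulating IGF complex, had levels of 3.42, 3.33, 5.25 and 2.57 in ABW and 4.30, 1.69, 3.44 and 3.60 in LBW on cord-labelled arrays, above all others. It was 10.6-fold above the liver-labelled arrays (log2 difference 3.41, SE 0.46, limma adjusted p = 1.7e-06) and 9.02-fold above muscle (limma adjusted p = 1.5e-06). Muscle and liver-labelled arrays differed by 0.24 for IGFALS (SE 0.46, limma adjusted p = 0.66). GHR, the growth hormone receptor, was 4.60-fold higher on cord-labelled than on liver-labelled arrays (log2 difference 2.20, SE 0.31, limma adjusted p = 2.6e-06) and 1.78-fold higher there than in muscle (limma adjusted p = 0.015). With normexp these GHR differences were 1.17 and, as muscle minus cord-labelled, -0.41. INSR, the insulin receptor, had another pattern, with muscle 2.68-fold above the liver-labelled arrays (limma adjusted p = 1.2e-04) and 1.29-fold above the cord-labelled arrays (limma adjusted p = 0.21). The INSR call against liver-labelled arrays was lost with spike-in scaling (0.72, limma adjusted p = 0.40). The muscle minus cord-labelled difference, not called before, was then -0.94 (limma adjusted p = 0.14). IGF2BP1, a fetal mRNA-binding protein that binds IGF2 mRNA, was not well above background on any muscle array and was at least 10.9-fold higher on cord-labelled arrays (limma adjusted p = 9.7e-13), whereas with normexp its muscle minus cord-labelled difference was -1.45.

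In the wider list 1 of 36 probes was called between LBW and ABW on cord-labelled arrays, where 0.625% of all probes were, and 0 under the other labels, where 0% were. This was RHEB, a small GTPase that activates mTOR. Averaged over the labels 1 of 36 probes was called, again RHEB (log2 difference -1.16), where 0.888% of all probes were. On cord-labelled arrays its levels were -1.99, -1.97, -0.45 and -0.80 in ABW and -3.65, -4.28, -3.97 and -4.14 in LBW, without overlap. Of the 36 probes 4 did not overlap there, where 5.85% of all probes did not. RHEB was 6.53-fold lower in LBW there (log2 difference -2.71, SE 0.40, limma adjusted p = 0.015, exact permutation p = 0.029, the smallest that 4 against 4 arrays can give). The 2 ABW arrays of slide 4 lay at -1.99 and -1.97 and those of slide 6 at -0.45 and -0.80, and against slide 4 alone the difference was -2.03 (limma adjusted p = 0.098). In muscle its levels were -0.70, -0.07, -0.62 and -0.89 in ABW and -1.99, -1.79, -0.96 and -0.91 in LBW, a difference of -0.84 that did not pass (limma adjusted p = 0.24). On liver-labelled arrays the difference was 0.07 (limma adjusted p = 0.99). The call on cord-labelled arrays was lost under several other settings, given with the closing values.

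The other 35 probes of the wider list were not called between LBW and ABW under any label. By the combined threshold of p and fold change limma found 2 of 36 in muscle, 1 on liver-labelled arrays and 3 on cord-labelled arrays, which as shares lie below those over all probes. For IGFALS the LBW minus ABW difference was 0.62 in muscle (95% interval -0.17 to 1.42), -0.39 on cord-labelled arrays (-1.84 to 1.06) and -0.21 on liver-labelled arrays (-1.79 to 1.38). For GHR it was -0.34 in muscle (-1.25 to 0.57), -0.15 on cord-labelled arrays (-1.07 to 0.76) and -0.02 on liver-labelled arrays (-0.76 to 0.73). For INSR it was 0.58 in muscle (-0.06 to 1.22), 0.35 on cord-labelled arrays (-0.65 to 1.34) and -0.22 on liver-labelled arrays (-0.74 to 0.30).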

How the data were processed

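RNA of 22 samples was hybridised to one-colour arrays, and per the file headers the deposited intensity of each spot is the background-subtracted, spatially detrended signal of Agilent Feature Extraction (10.1.1.1, or 10.5.1.1 for slide 6), not scaled between arrays. The authors' deposited log2 table, scaled to the 75th percentile and centred in GeneSpring, served as an alternative. The pair of spots carrying 1 probe was averaged without outlier spots, log2 was taken, and the array's 75th percentile was subtracted. This percentile ranged from 315 to 2390, and 14596 to 17889 probes were well above background per array, which with the number of arrays limits the precision. A probe passed when 75% or more of some group's arrays had it well above background (17117 of 20217 probes). The human accession of each probe, assigned by the submitters' platform to a macaque sequence, was paired with a symbol by hand.

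Differences were fitted with limma 3.58.1 in R 4.3.3 over all kept probes with Benjamini-Hochberg adjustment, within each label for LBW minus ABW and over 22 arrays for the labels, their mean and the interaction. The study's methods describe liver and muscle taken from the same neonates, so that arrays of different labels may share an animal. The main fits over 22 arrays took every array as separate. Their p-values measure the spread between these arrays and not that between neonates. Exact permutation tests were two-sided. Probes well above background on no array of a label have a bound, against the lowest signal well above background. Each fit was tested on simulated data. Tables and figures used Python 3.11.15, numpy 2.4.6, pandas 2.3.3, scipy 1.17.1 and matplotlib 3.10.9.

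The members and lists were chosen with earlier results of these data known. Named were all members, list genes called between LBW and ABW, the 3 largest list differences per label comparison, IGFALS, GHR and INSR; JAK2, STAT5A, TSC2 and genes named beside these were added after their values were seen. Replicate numbers were not taken to pair arrays. Alternatives covered background correction, scaling, filters, floors, tests, slide, replicate blocks, probes per accession and leaving out arrays. The slide random block used statmod 1.5.0. Genome positions and probe sequences were not used here. Values of 1 gene of the wider list are not reported singly here.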

Additional observations from a re-analysis of the deposited data

Results flagged for a closer look

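The birth weight difference of RHEB, the mTOR activator, varied between the tissue labels by the limma interaction test (adjusted p = 0.0127). It was -2.71 on cord-labelled arrays, -0.84 in skeletal muscle and 0.07 on liver-labelled arrays. The LBW arrays lay below all ABW arrays under the first 2 labels, where 5.85% and 10.5% of all probes did not overlap. The muscle difference did not pass the test. All cord-labelled LBW arrays lay on slide 5 and no ABW array did, and the part of slide in this difference was not tested. None of the 6 IGF family transcripts had such a difference. Among the 24 sets of 4 arrays of one transcript and group, 0 held an array beyond the critical gap of Dixon's test, which chance exceeds in about 1 of 20 sets.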

How the results depend on the processing

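The number of IGF family members called stayed at 0 of 6 for LBW minus ABW under each label, for their mean and for the interaction in all alternatives run, where the lowest limma adjusted p was 0.34 for a difference and 0.37 for the interaction. Of 588 such differences 66 changed sign without passing the test. Between muscle and liver-labelled arrays 6 of 6 were called throughout, between muscle and cord-labelled arrays 5 to 6, and between cord-labelled and liver-labelled arrays 4 to 5. IGF1R in muscle minus cord-labelled arrays was 0.43 with normexp and 0.22 with spike-in scaling. Spike-in scaling moved the median over all probes from 0.11 to -1.19 in that comparison. Both scalings subtract a single value per array, so that every probe shifts alike. The IGF1R difference relative to the median, 1.41, is therefore the same under both by construction and cannot check the lost call. IGFBP2 in cord-labelled minus liver-labelled arrays was -0.74 after quantile normalization and 0.88 within slide 4. Between arrays of the same replicate number in different groups, correlations of deviations ran from -0.29 to 0.38, and 7 of 31 exceeded 0.1. Some of these pairs set LBW against ABW arrays and others set different tissues together. The values therefore cannot tell whether arrays of the same number share a neonate. With the replicate block the members called were 0, 0, 0, 0, 0, 4, 6 and 6 as without it. RHEB on cord-labelled arrays was not called with normexp (-1.53, adjusted p = 0.29), spike-in scaling (-3.05, 1.0), the methods' t-test (0.48) or the ABW arrays of slide 4 alone. Without single cord-labelled arrays its limma adjusted p ranged from 0.017 to 0.065, above 0.05 without ABW replicate 4 or LBW replicates 2, 3 or 4. Averaged over the labels RHEB was called in the main fit (-1.16) and whenever arrays were left out (limma adjusted p from 0.0026 to 0.024). That average was not called with normexp (-0.72, adjusted p = 0.087) or spike-in scaling (-1.36, 0.79), and the RHEB interaction was lost under both. TSC2, an inhibitor of RHEB, was called on cord-labelled arrays when all 22 arrays shared one fit (0.80, limma adjusted p = 0.031). It was not called there in the main fit, and the share of all probes called in the shared fit is not given here. TSC1, also on the wider list, went the other way at both probes without passing the test. Without single cord-labelled arrays its differences ran from -1.37 to -0.87 and from -0.33 to -0.01. The causes were not tested.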
